A study of Mus musculus with 2 samples.

Results

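A set of 5 miRNA genes of imprinted loci outside the large Dlk1-Dio3 and Sfmbt2 clusters were followed in the forebrain of the mouse embryo: Mir335 in Mest, Mir296 and Mir298 beside Nespas at the Gnas locus, Mir483 in Igf2 and Mir675 in H19. They were chosen by locus, with earlier results of these data known, and make up 5 of the 1973 miRNA gene rows counted. The study sequenced small RNA below 30 nt from 1 group of 2 biological replicates, forebrain of healthy B6NCrl embryos at 15.5 days, without treatment or engineered allele. Replicate 1 was pooled from 78 embryos and replicate 2 from 62 embryos of both sexes. The levels are therefore averages over many animals and over all cell types that the dissected forebrain held. With 1 group, every test below compares these 2 pools and not conditions.

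Imprinted genes are transcribed mainly from the copy inherited from 1 parent, and many of them govern growth before birth. Mest and Igf2 are expressed from the paternal copy in most embryonic tissues, H19 from the maternal copy, and Nespas is a paternally expressed transcript antisense to part of Gnas. A miRNA hairpin is cut from such a host RNA, and its mature arm pairs with messenger RNAs largely through its seed, bases 2 to 8, to lower their output. The counts do not tell parental alleles apart, nor the arms of a hairpin.

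The mature arms show what each gene can pair with, and are printed 5′ to 3′ from RefSeq (GRCm38.p6), with the seed in capitals. All 5 genes had a hairpin and both arms there.

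miR-335-5p: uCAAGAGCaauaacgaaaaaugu
miR-335-3p: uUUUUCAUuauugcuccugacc
miR-296-5p: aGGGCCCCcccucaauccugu
miR-296-3p: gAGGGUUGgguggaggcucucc
miR-298-5p: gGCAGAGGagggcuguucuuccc
miR-298-3p: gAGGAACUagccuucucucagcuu
miR-483-5p: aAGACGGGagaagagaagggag
miR-483-3p: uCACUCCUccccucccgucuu
miR-675-5p: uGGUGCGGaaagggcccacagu
miR-675-3p: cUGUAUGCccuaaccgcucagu

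No 2 of these 10 seeds are the same, and none occurred in an arm of another gene of that table, where 68.0% of all 1738 arms had a seed held by a single gene. No stretch of 18 bases of any arm was found in another gene's hairpin. Among GENCODE M21 transcripts, on either strand, the whole arms of Mir675 occurred also in its host H19, and the other 8 arms in no other gene. Introns and unannotated sequence were not searched. By this search the members were not copies of other annotated miRNA genes, whose reads stay outside gene counts when they map to more than 1 place.

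The arms differ in composition. The Mir335 arms are A- and U-rich, with a GC content of 30.4% for miR-335-5p and 36.4% for miR-335-3p. The other arms hold between 50% GC for miR-298-3p and 68.2% for miR-296-3p. The Mir483 arms are almost wholly purine on 1 side of the hairpin and pyrimidine on the other: A and G make up 95.5% of miR-483-5p and 9.52% of miR-483-3p. Over the whole hairpin, GC content was 42.9% in Mir335, 53.7% in Mir298, 58.9% in Mir483, 63.1% in Mir675 and 63.3% in Mir296, beside a median of 50.5% over the 319 detected genes with a hairpin in the table. The predicted folding energy per base was -0.67 kcal/mol for Mir675, -0.55 for Mir296, -0.52 for Mir298, -0.46 for Mir483 and -0.45 for Mir335, beside a median of -0.43. All 5 hairpins were thus predicted to fold at least as stably per base as the median, and Mir675, the member with the fewest reads, had the lowest energy of the 5.

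The positions relative to the hosts also differ (mm10, counted from 1, GENCODE M21). Mir335 (chr6:30741299-30741396, plus strand) lies in an intron of Mest in each of the 7 Mest transcripts that span it, 475 bases after the nearest exon and 745 before the next. Mir483 (chr7:142654924-142654996, minus strand) is likewise intronic in all 7 spanning transcripts of Igf2, the gene of a fetal growth factor. Mir675 (chr7:142577064-142577147, minus strand) overlaps an exon in 3 of the 4 spanning transcripts of the noncoding gene H19, and lies 77777 bases from Mir483 on the same strand. Mir296 (chr2:174267047-174267125) and Mir298 (chr2:174267504-174267585), both on the minus strand, are 379 bases apart. No annotated transcript of Nespas spans them: they lie 14112 and 13652 bases beyond its annotated end, on its strand, so that "at Nespas" describes a neighbourhood and not a host in this annotation.

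The libraries held 4464927 and 4753555 sense-strand counts in miRNA gene rows. A gene without reads could have stood at up to 0.672 CPM in the first pool and 0.631 CPM in the other, which is what 3 counts are worth. No molecular identifiers mark the reads, which may be copies of 1 molecule, so floors, intervals and tests here cover counting error only. CPM are counts scaled so that the miRNA genes of a library sum to 1000000. They are not divided by length, since mature arms are of near-equal length (21 to 24 bases in the members). The counts hold no read positions, so reads of an arm cannot be told from other fragments of a hairpin or, for Mir675, of the H19 exon. Forebrain markers were present: 11 of 14 matched neuronal and progenitor genes were detected, summing to 21124 and 21477 CPM. The 3 Mir124a genes, which share sequence, stayed below 3 CPM on average. Mir9-3 stood at 733 CPM and Mir9-2 at 3.26 CPM on average, and Mir9-1 had no matched row. Reads that map to more than 1 place are outside these sums, so sums of different lists do not compare amounts of cells. Mesenchyme, meningeal and mural markers summed to 6041 and 6814 CPM over 7 genes, of which 6 were detected, the endothelial gene Mir126a stood at 15856 and 16377 CPM, and 4 matched blood markers summed to 217 and 264 CPM. No matched marker was at 0 in both libraries. In such tissue RNA, fewer cells of a type and less RNA per cell cannot be told apart.

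All 5 members reached 10 counts in both libraries, the limit for detection used here, as did 370 of the 1973 gene rows (18.8%). They spanned nearly the whole range of detected genes. The 5 together held 4.53% of gene counts in replicate 1 and 3.92% in replicate 2, and of these Mir335 alone held 88.7% (Clopper-Pearson 95% interval 88.6 to 88.9) and 87.7% (87.6 to 87.9). The median level of the members was 1878 CPM, beside 111 CPM over all detected genes; 3 members stood above that median and 2 below it.

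**Figure D1:**
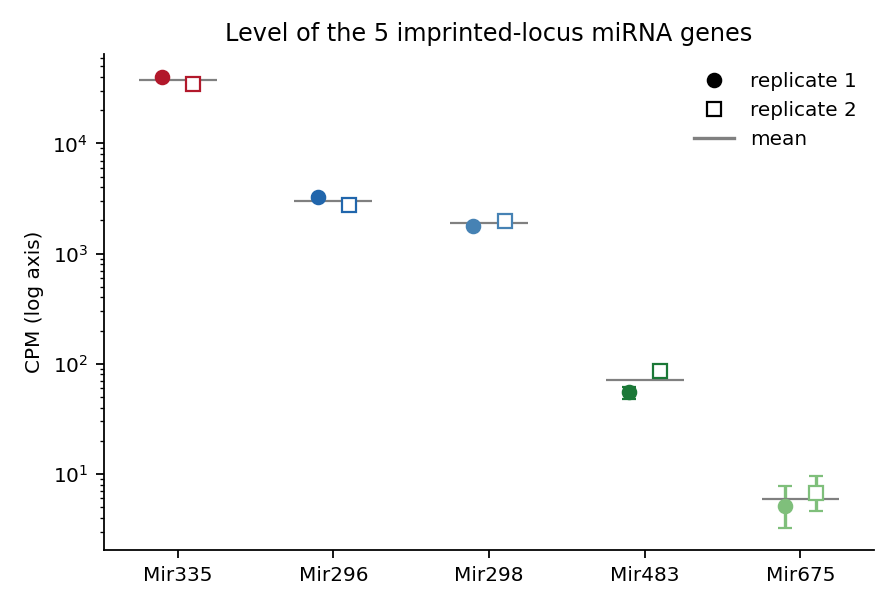
Level of each member in CPM on a log axis, with filled circles for replicate 1, open squares for replicate 2, exact Poisson 95% intervals as bars and the mean as a grey line. Mir335 stands near 37289 CPM, Mir296 and Mir298 between 1773 and 3272 CPM, Mir483 below 87 CPM and Mir675 below 7 CPM, and no 2 members overlap.

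Mir335, the miRNA of the Mest intron, had 179392 counts in replicate 1 and 163525 in replicate 2, that is 40178 CPM (Poisson 95% interval 39992 to 40364) and 34401 CPM (34234 to 34568). Its mean was 37289 ± 4085 CPM (SD, n = 2). Among counted reads, without those that map to more than 1 place, it had rank 3 in replicate 1, rank 5 in replicate 2 and rank 5 by mean. It exceeded Mir296, the next member, by 12.4-fold and Mir675, the lowest, by 6276-fold. Its order among the most abundant genes was not settled by these libraries: the gap to Mirlet7i above it was 45.1 CPM and that to Mir17 below it 3354 CPM, both within its own SD.

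The pair at the Gnas locus came next. Mir296 had 14608 and 13007 counts, or 3272 CPM in replicate 1 and 2736 CPM in replicate 2, with a mean of 3004 ± 379 CPM (SD, n = 2) and rank 53 of the 1973 gene rows. Mir298 had 7918 and 9420 counts, or 1773 and 1982 CPM, with a mean of 1878 ± 147 CPM (SD, n = 2) and rank 68. Mir296 was the higher of the pair in both libraries.

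The Igf2-H19 domain gave the lowest levels. Mir483 had 245 and 413 counts, or 54.9 CPM (48.2 to 62.2) in replicate 1 and 86.9 CPM (78.7 to 95.7) in replicate 2, with a mean of 70.9 ± 22.6 CPM (SD, n = 2) and rank 214. Mir675 had 23 and 32 counts, or 5.15 CPM (3.27 to 7.73) and 6.73 CPM (4.60 to 9.50), with a mean of 5.94 ± 1.12 CPM (SD, n = 2) and rank 320. Mir483 exceeded Mir675 in both libraries, by 10.7 times (6.94 to 17.1) in replicate 1 and 12.9 times (9.00 to 19.1) in replicate 2. The level of Mir675, a miRNA known to restrain placental growth, was above the limit that a count of 0 allows in both pools, though its counting interval is wide.

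**Figure D2:**
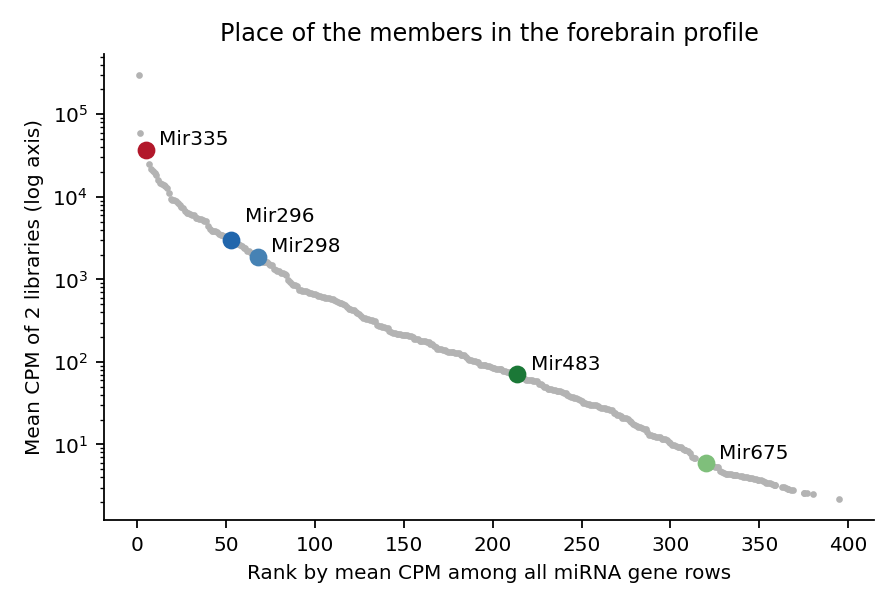
Mean CPM of the 370 detected miRNA genes on a log axis against rank among all 1973 gene rows, with other genes in grey and the 5 members as labelled points. The members lie at ranks 5, 53, 68, 214 and 320, from the top of the profile to its lower end.

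The genes closest to each member in both libraries were found by the distance between log2(CPM + 1) values over the 2 libraries, which is a likeness of level and no more. Mirlet7i (0.096) and Mir100 (0.20) were closest to Mir335, and Mir361 (0.13) and Mirlet7f-2 (0.21) to Mir296. Mir1983 (0.081) and Mir532 (0.11) were closest to Mir298, and Mir495 (0.19) and Mir19a (0.24) to Mir483. Mir5618, on another chromosome, had by coincidence of small numbers the same 23 and 32 counts as Mir675, and Mir302c (0.17) followed. At every member, the neighbours next above and below in rank lay within the larger SD of the 2 genes compared.

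Nearly all reads of the members came from the annotated strand. Mir335 had 1 opposite-strand count in replicate 1 (0.00056% of its counts on either strand) and 6 in replicate 2 (0.0037%, Clopper-Pearson 95% interval 0.0013 to 0.0080). Mir296, Mir298, Mir483 and Mir675 had 0. For Mir296 this allows a share of up to 0.0205% in replicate 1 and 0.0231% in replicate 2, for Mir298 up to 0.0379% and 0.0318%, for Mir483 up to 1.22% and 0.726%, and for Mir675 up to 13.0% and 9.38%. Of the detected genes, 94.1% in replicate 1 and 91.1% in replicate 2 likewise had no opposite-strand count.

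The pools differed in 4 of the 5 members beyond counting error, 2 being lower and 2 higher in replicate 2 by an exact binomial test with p adjusted over 457 genes (Benjamini-Hochberg). Over all genes tested, 166 (36.3%) were called, 19.3% higher and 17.1% lower. The call depends on depth: of genes with at least 1000 counts in total, 67.0% were called, and Mir335, Mir296 and Mir298 are all of that kind, so the members' count is no result about imprinted loci. The 53.0% of calls that were higher in replicate 2 became 42.9% with TMM scaling and 69.1% with the most abundant gene, Mir99a, left out of the total. The median log2 ratio of detected genes was 0.046, and 0.11 with Mir99a left out.

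Mir335 stood lower in replicate 2, at a log2 ratio of -0.22 (95% interval -0.23 to -0.21) and an exact binomial p too small for the calculation to hold. Mir296 was also lower, at -0.26 (-0.29 to -0.22; exact binomial test, adjusted p = 1.18e-48). Mir298 was higher, at 0.16 (0.12 to 0.20; exact binomial test, adjusted p = 2.31e-12). Of the 370 detected genes, whose median absolute log2 ratio was 0.19, 155 had a larger one than Mir335, 135 than Mir296 and 206 than Mir298. Mir335 and Mir296 thus lay above that median and Mir298 below it. Their coefficients of variation were 11.0%, 12.6% and 7.84%, beside the 15.0% that edgeR's common dispersion gave over detected genes. The measures are not alike: the coefficients use library-total CPM and include counting error, while edgeR's value uses TMM scaling and sets that error aside.

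Mir483 differed most, at a log2 ratio of 0.66 (0.43 to 0.90; exact binomial test, adjusted p = 4.78e-08), 1.58-fold higher in replicate 2. Its counting intervals in the 2 pools did not overlap, its coefficient of variation was 31.9%, and 38 of the 370 detected genes had a larger absolute ratio. Mir675 was at 0.38 (-0.43 to 1.23; exact binomial test, adjusted p = 0.522) and was not called, and its interval holds both no difference and the ratio of Mir483. Markers of other cell types also differed between the pools: the mesenchyme, meningeal and mural sum was 1.13 times as high in replicate 2, with 3 of 7 genes called higher and none lower, the blood sum 1.22 times, with 2 of 4 called higher, and the liver miRNA Mir122 stood at 65.6 CPM in replicate 1 and 88.6 CPM in replicate 2 and was called higher. The endothelial gene Mir126a was 1.03 times as high and was called higher. Over all genes tested 36.3% were called, and 67.0% of those with at least 1000 counts in total. Other lists went the other way or were split. The forebrain neuron and progenitor sum was 1.02 times as high in replicate 2. In that list Mir92b, Mir153 and Mir132 were called higher, and so was Mir124a-3, on 0 and 10 counts and not detected by the limit used here. Mir137 and Mir128-1 were called lower, and the others were not called. The muscle sum was 0.250 times as high in replicate 2, with Mir206 called lower (log2 ratio -2.07) and Mir133b not called. The choroid plexus and epithelium sum was 0.853 times as high, with Mir204 (-0.68) and Mir211 (-1.20) called lower, Mir200a (1.47) and Mir203 (0.19) called higher and 2 of 6 not called. Their part in the difference of Mir483 was not tested.

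**Figure D3:**
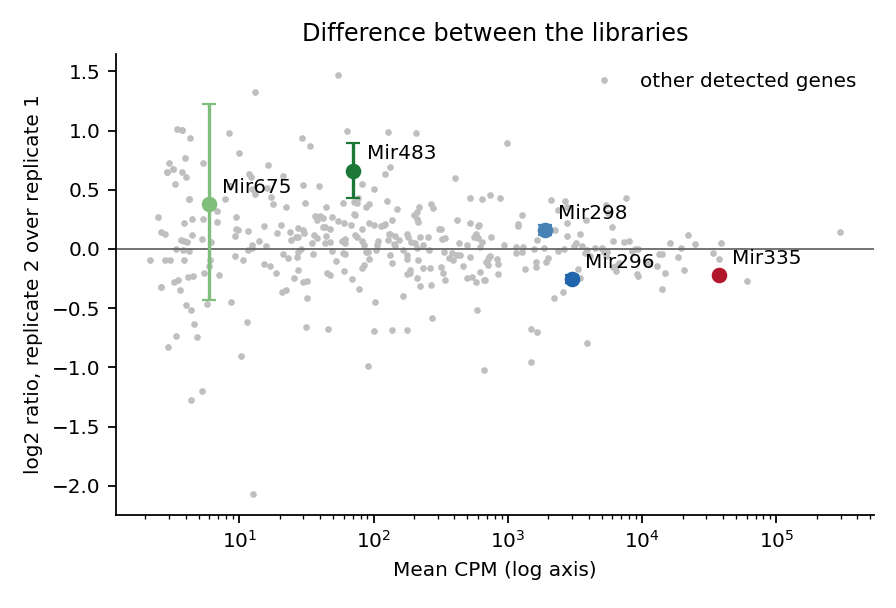
Log2 ratio of replicate 2 over replicate 1 against mean CPM (log axis) for detected genes, with other genes in grey and the members with exact 95% intervals for counting error. Mir335 and Mir296 lie below 0, Mir298 and Mir483 above it, and the interval of Mir675 crosses 0.

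Members of a locus did not always keep their proportion. Mir296 outnumbered Mir298 by 1.84 times (Clopper-Pearson 95% interval 1.80 to 1.90) in replicate 1 and by 1.38 times (1.34 to 1.42) in replicate 2. This ratio, which does not depend on how the libraries are scaled, was 1.34 times as high in replicate 1 (1.29 to 1.39; Fisher's exact test, adjusted p = 4.26e-50 over 2 pairs). The ratio alone gives no direction for either gene. Relative to the library total, Mir296 was lower in replicate 2 and Mir298 higher. For Mir483 and Mir675 the change of the ratio was 0.825 (0.456 to 1.51; Fisher's exact test, adjusted p = 0.563), an interval that holds the shift of the other pair, so such a shift was not detectable at the depth of Mir675.

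A changed proportion was not unusual among neighbours. Of 107 adjacent pairs of detected genes on 1 strand within 10 kb, 36 (33.6%) changed their ratio between the libraries by the same test, adjusted over those pairs. Both genes were called in 26 pairs, with library-total scaling. In 10 of these 26, Mir296 and Mir298 among them, the calls were in opposite directions. The 2 log2 ratios differed by 0.42 for Mir296 and Mir298, beside a median of 0.20, and by more in 20 of the 107 pairs.

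**Figure D4:**
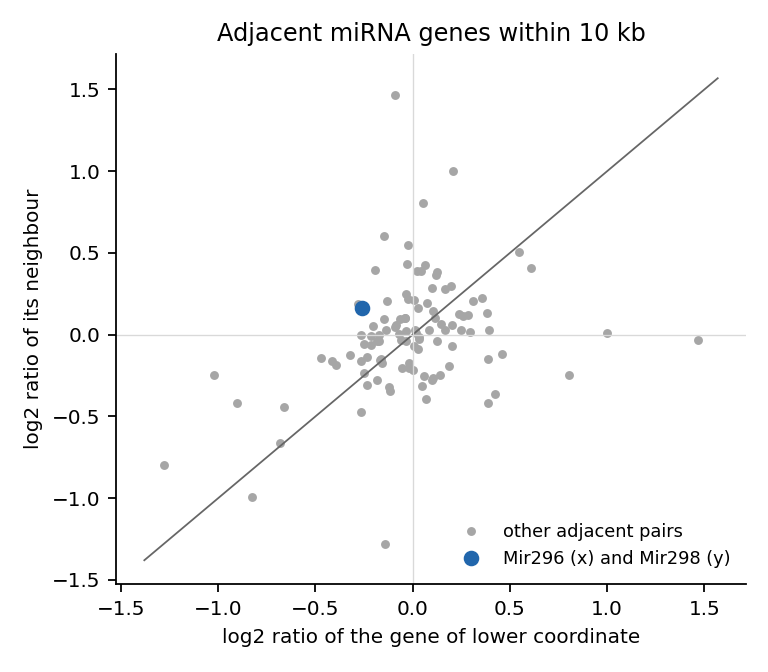
Log2 ratio of replicate 2 over replicate 1 of each gene against that of its neighbour for 107 adjacent pairs, with the diagonal marking equal ratios. The pair of Mir296 (-0.26) and Mir298 (0.16) lies off the diagonal where the signs are opposite, within the scatter of the other pairs.

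Other imprinted miRNA genes give the setting. Of 59 gene rows between Dlk1 and Dio3, 45 were detected, led by Mir487b at 14700 ± 1472 CPM, Mir369 at 6416 ± 463 CPM and Mir127 at 5387 ± 162 CPM (SD, n = 2). Together they held 5.41% and 4.92% of gene counts, not far above the 4.53% and 3.92% of the 5 members. No gene between Dlk1 and Dio3 reached the level of Mir335. In that list 18 of 48 tested genes were lower in replicate 2, 7 higher and 23 not called, with a median log2 ratio of -0.039 over its detected genes. Over all genes tested, the background for this list and those below, 17.1% were lower and 19.3% higher. The detected genes of the list had a median of 310 CPM, beside 111 CPM over all detected genes, and calls depend on depth.

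The other lists were lower. Of 107 rows inside Sfmbt2, 9 were detected, led by Mir467c at 843 ± 52.4 CPM, and the list held 0.269% and 0.256% of gene counts, with 3 of 11 tested genes lower, 1 higher and 7 not called. Its members share sequence, so reads that map to more than 1 of them were not counted. Of 13 Mir344 genes, which lie in the mouse counterpart of the Prader-Willi region, 3 were detected, led by Mir344c at 12.5 ± 3.13 CPM, and none of 3 tested was called. Mir184, which had 13 and 8 counts, stood at 2.30 ± 0.869 CPM and was not called.

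The library differences of the members kept their signs and calls when the scaling was changed, as the plot of ratios under 4 scalings shows.

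**Figure D5:**
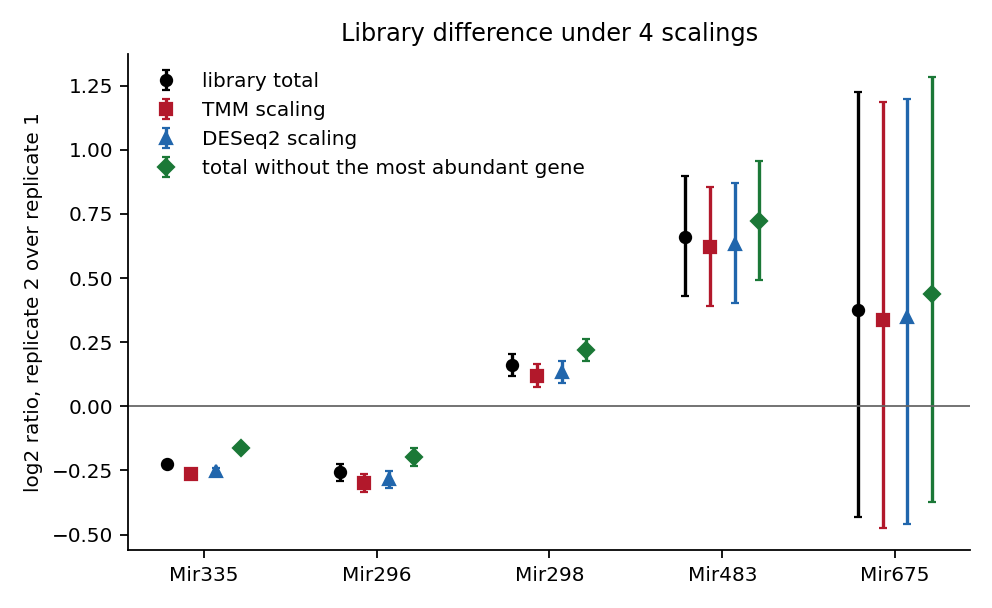
Log2 ratio of replicate 2 over replicate 1 of each member under 4 scalings, with exact 95% intervals for counting error. The values of Mir335 run from -0.26 to -0.16, those of Mir296 from -0.30 to -0.20, those of Mir298 from 0.12 to 0.22 and those of Mir483 from 0.62 to 0.72, and the interval of Mir675 crosses 0 each time.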

How the data were processed

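The authors deposited raw counts of reads per miRNA gene for each of the 2 libraries, made from mm10 alignments with GENCODE M4, per the README text deposited with them. Aligner and counter: not given in the sources used here. Sense-strand counts (column 3) were used. The 4 rows that name no gene were left out: multi-mapping reads were 44.6% and 42.4% of all reads. Symbols and positions came from GENCODE M21, matched for 1894 of 1973 rows.

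CPM, ratios (0.5 counts added), exact binomial and Fisher tests were computed with SciPy 1.17.1, for genes with at least 10 counts in total, at an adjusted p below 0.05. edgeR 4.0.16 gave TMM factors and the dispersion, DESeq2 1.42.0 size factors, and ViennaRNA 2.7.2 folding energies. No quasi-likelihood test was run, since 1 group has no contrast.

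The members, lists and tests were chosen with earlier results of these data known, and the list of adjacent pairs after the values were seen. Named were all members, the 2 nearest genes of each, Mir99a, rank neighbours and up to 3 top genes of each other imprinted list and of genes sharing a seed (there were none). The p-values cover counting error in these 2 libraries and hold no variance between pools. No source states a litter or batch for the pools, and differences between them may be technical.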

Additional observations from a re-analysis of the deposited data

Results flagged for a closer look

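Mir335 had 6 opposite-strand counts in replicate 2, above the 3 counts that a count of 0 allows, in a strand column that carries no level of the report. Replicate 1 had 1 such count, and the 6 stand beside 163525 counts on the annotated strand.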

How the results depend on the processing

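No paired analysis was possible because the study has 1 group. The log2 ratios of the 5 members kept sign and call with TMM and DESeq2 scaling, with Mir99a left out of the total and with either-strand counts. Leaving Mir99a out raises every CPM by construction, and the member levels then moved by more than their SD: Mir335 stood at 52965 CPM, Mir296 at 4266, Mir298 at 2674, Mir483 at 101 and Mir675 at 8.48 CPM. Minimums of 1 and 100 counts in total left 4 members called. The number of counts added to a ratio cannot change a call. When 100 counts per library were asked for, the members detected went from 5 to 4, without Mir675. Leaving out a replicate gives the other pool's value, which lies within the SD by construction, and no test. Depth limits Mir675, with 23 and 32 counts. No difference between the pools has a replicate check.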
